A study of Mus musculus with 8 samples.

Results

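The genes of major histocompatibility complex (MHC) class II presentation and of the T cell checkpoint were read in endothelial cells sorted from the mouse colon. The 10 named members were the class II chain genes H2-Aa, H2-Ab1 and H2-Eb1, the peptide-exchange genes H2-DMa and H2-DMb1, the invariant chain gene Cd74, the class II transactivator gene Ciita, and the T cell ligand genes Cd274, Cd80 and Cd86. They were chosen by symbol, as every probe set annotated to exactly 1 gene that bears 1 of these names. This gave 21 probe sets of 9 genes, out of 45101 probe sets and 18193 genes on the array. H2-DMb1 had no probe set of its own, because both of its probe sets are shared with H2-DMb2. Lymphatic endothelial cells (LEC) and blood vascular endothelial cells (BEC) were taken from the same 4 healthy, untreated C57BL/6J mice, 3 female and 1 male, all 8 weeks old. This gave 4 LEC arrays and 4 BEC arrays, and replicate numbers name the mouse. The sort used antibodies against the endothelial antigen CD31, the lymphatic antigen podoplanin and the leukocyte antigen CD45.2, and its gates were not stated. The colons were digested with collagenase, and the 4 pairs were those with the best RNA and cDNA, so they are a selected set.

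Class II molecules are heterodimers of an alpha and a beta chain that carry peptides from the endosome to the surface, where CD4 T cells read them. The invariant chain guides and guards the heterodimer, and the DM molecule swaps its last fragment for peptide. CIITA is the coactivator that these promoters require, and interferon gamma induces it in cells that are not professional antigen-presenting cells. PD-L1, the product of Cd274, binds PD-1 and restrains T cells, whereas CD80 and CD86 bind CD28 and CTLA-4 and co-stimulate or restrain them. Endothelial cells can carry class II and PD-L1, and lymphatic endothelium of lymph nodes is known for both in peripheral tolerance. C57BL/6J mice are of the H-2 b haplotype, which makes the class II molecule I-A but, for want of H2-Ea transcription, no surface I-E.

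Promoters of 3 class II genes are shown because they hold the paired boxes through which the regulatory factor X complex, nuclear factor Y and CIITA act together. RefSeq windows of GRCm38.p6 were given here for 6 of the 10 members, and the 250 bases before the start were searched for the letters GNAACT, from the core of the X box, followed within 50 bases by GATTGG, from the Y box. These letters were written with the class II promoters in view. The order of both boxes on 1 strand was found for 3 members, H2-Aa, H2-Eb1 and H2-DMb1, and in 0.694% of all 32851 windows with either strand read. Alone, the X letters were in 37.3% of windows and the Y letters in 14.6%. Each sequence below is given 5′ to 3′ on the gene's strand, with the 2 boxes in capitals.
H2-Aa, chr17:34287857-34287914, minus strand: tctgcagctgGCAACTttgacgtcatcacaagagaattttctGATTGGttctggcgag
H2-Eb1, chr17:34305766-34305822, plus strand: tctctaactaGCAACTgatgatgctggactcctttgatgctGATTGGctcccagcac
H2-DMb1, chr17:34153087-34153144, plus strand: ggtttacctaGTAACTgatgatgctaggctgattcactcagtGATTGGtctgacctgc
The boxes stand 26, 25 and 26 bases apart in these 3 promoters. The windows of the other 3 members searched, the class II pathway gene H2-DMa with 2 windows, Cd274 and Cd80, did not hold the pair. A match of letters is a description and no measured binding.

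The labels fitted the arrays. Podoplanin (Pdpn), a sort antigen, averaged 12.24 ± 0.07 on LEC arrays and 3.39 ± 0.59 on BEC arrays in log2 signal (SD over 4 arrays each), and CD31 (Pecam1) stood at 11.49 ± 0.60 in LEC and 12.10 ± 0.44 in BEC. All 7 measured lymphatic markers were higher and all 8 blood vascular markers lower in LEC by limma at an adjusted p under 0.05. The lymphatic markers include Pdpn, and the lists were chosen with earlier results of these data known. These counts are thus no independent check. Background was set on each array from control probe sets for bacterial RNA, and its log2 values were 4.88, 4.32, 3.83 and 4.01 on LEC arrays 1 to 4, against 4.52, 3.43, 3.43 and 3.43 on BEC arrays 1 to 4. The median of all probe sets was 4.75, 4.35, 4.34 and 4.02 on the LEC arrays, against 4.40, 4.22, 3.85 and 3.90 on the BEC arrays. Both were higher in LEC in 4 of 4 mice and highest in replicate 1 of each cell type, and the part of this offset in the signals of dim probe sets was not tested. LEC replicate 3, BEC replicate 3 and BEC replicate 4, 3 arrays in all, carried bright colon epithelial genes: the summed linear signal of 12 such genes was 376 to 9784 on LEC arrays and 501 to 21455 on BEC arrays. Limma tested 13259 genes and called 540 of them (4.07%), 234 higher and 306 lower in LEC. With equal array medians the split was 162 and 336, and the median difference of all genes moved to -0.20, against 0.08 on the deposited scale, so small differences are relative to that scale.

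No member that could be tested was called. The filter on dim values kept 7 of the 9 measured genes, and limma called 0 of these 7 (4.07% of all tested genes were called, 1.76% higher and 2.31% lower in LEC), with 2 under an unadjusted p of 0.05 (14.4% of all tested genes). Of the 7 differences, 5 were above 0 and 2 below, with a median log2 difference of 0.34, against 0.08 over all tested genes. Their adjusted p-values ran from 0.172 to 0.963. Fitted over probe sets, limma called 0 of the members' 10 kept probe sets (3.31% of all kept probe sets), with 3 under an unadjusted p of 0.05 (13.1% of all kept probe sets). Most of the probe sets were near or under background: 5 of the 21 exceeded it on no array, and 12 on fewer than 4 arrays. Of the 7 tested members 0 exceeded it on all 8 arrays, whereas 45.0% of all tested genes did. A value under background is no measure of absence. In sorted bulk material, fewer cells with a transcript and less transcript per cell cannot be told apart.

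**Figure D1:**
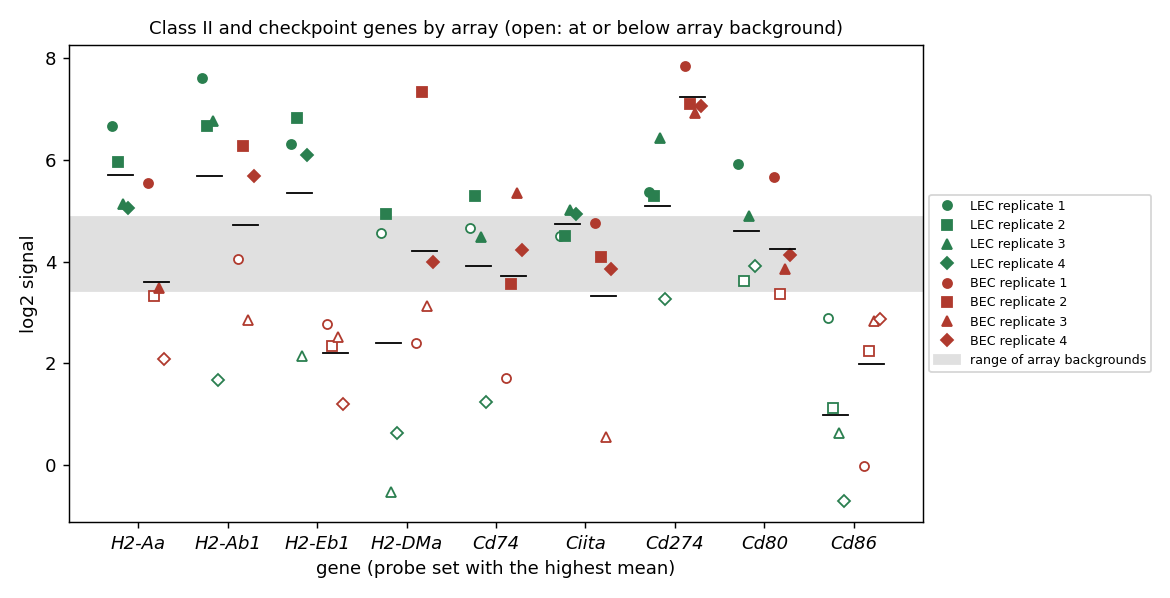
Log2 signal (vertical axis) of the probe set taken for each of the 9 measured genes (horizontal axis), 1 point per array, with LEC left of BEC, marker shape for the mouse, open markers at or under the array's background, a bar at the group mean and the range of array backgrounds in grey. Cd274 alone among these probe sets had groups that did not overlap, with BEC between 6.92 and 7.83. Groups did not overlap at 10.4% of all tested genes in either direction. H2-Eb1 was over background on 3 LEC arrays and on 0 BEC arrays.

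The class II chain genes had higher mean signal in LEC, without passing the test. H2-Aa, the alpha chain of I-A, had log2 signals of 6.66, 5.96, 5.12 and 5.05 on LEC arrays 1 to 4, against 5.54, 3.33, 3.47 and 2.09 on BEC arrays 1 to 4, with its probe set 1438858_x_at. All 4 LEC arrays and 2 of 4 BEC arrays were above background, LEC was higher in 4 of 4 mice, and the groups overlapped through BEC replicate 1. The difference was 2.09 ± 0.88 (log2, limma standard error, 95% interval 0.18 to 3.99), and its adjusted p was 0.288. A second kept probe set, 1435290_x_at, had 6.86, 5.81, 5.03 and 5.09 on the LEC arrays, against 5.54, 3.08, 2.10 and -0.49 on the BEC arrays. Replicate 1, with the highest background of each cell type, was the highest array in both with either probe set, and the log2 difference here was 3.14 ± 1.17 (limma over probe sets, adjusted p = 0.228). Both names end in _x_at, the array maker's mark for probes that can match other transcripts, and the 2 are no independent measures. The other probe sets of H2-Aa, 1452431_s_at and 1443783_x_at, were above background on 1 LEC and 1 BEC array and on none, so they give no difference to read.

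H2-Ab1, the beta chain of I-A, was brightest with 1450648_s_at, at 7.60, 6.65, 6.77 and 1.67 on the LEC arrays, against 4.06, 6.27, 2.85 and 5.68 on the BEC arrays. LEC replicate 4 lay under its background while the other LEC arrays stood above every BEC array, and the difference of 0.96 ± 1.23 (95% interval -1.70 to 3.62) had an adjusted p of 0.803 (limma). It was 0.32 without LEC replicate 1, 0.34 without BEC replicate 3, 2.29 without LEC replicate 4 (adjusted p = 0.283), 0.15 without the 3 arrays with bright epithelial genes and 1.66 for the mean of its probe sets. Its second kept probe set, 1425477_x_at, had 6.83, 5.76, 3.87 and 4.24 on the LEC arrays, against 3.36, 4.36, 3.12 and 1.61 on the BEC arrays. It was above background on 4 LEC arrays and 1 BEC array and higher in LEC in 4 of 4 mice, with a difference of 2.06 and an adjusted p of 0.389 (limma over probe sets). Its name ends in _x_at as well, so its probes can match other transcripts. The third, 1451721_a_at, was not kept: 6.03 and 5.69 on LEC arrays 1 and 2 were its values above background, and LEC arrays 3 and 4 and all 4 BEC arrays lay below it. The probe sets of this gene thus shared high values on LEC arrays 1 and 2 and differed on LEC arrays 3 and 4.

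H2-Eb1, the beta chain of I-E, had 6.30, 6.82, 2.16 and 6.09 on the LEC arrays, against 2.78, 2.34, 2.52 and 1.21 on the BEC arrays. It was above background on 3 of 4 LEC arrays and on 0 of 4 BEC arrays, and the filter, which asks for 4 arrays above the 40th percentile, left it out. With the BEC arrays set to their background, the measured LEC mean was 3.12-fold higher. This is a bound on the means of these arrays, LEC replicate 3 under its background included, and not on the cell types. In the fit with no filter the difference of the measured means, 5.34 ± 2.15 in LEC and 2.21 ± 0.69 in BEC (SD, n = 4 each), had an adjusted p of 0.191 (limma). In mouse 3 both values were under background.

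Read across the 8 probe sets of these 3 chain genes, 6, 6, 5 and 4 were above background on LEC arrays 1 to 4, against 2, 2, 1 and 2 on BEC arrays 1 to 4. These counts are read against each array's own background. The linear signals of the 3 genes, summed over the probe set taken for each, ran from 104 to 374 in LEC and from 24.0 to 92.2 in BEC, and these ranges did not overlap. Among single tested genes, 5.19% were higher in LEC without overlap, and no such share was computed for sums. The sum includes values under background, the probe sets share targets and arrays, and no test was made of the sum.

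**Figure D2:**
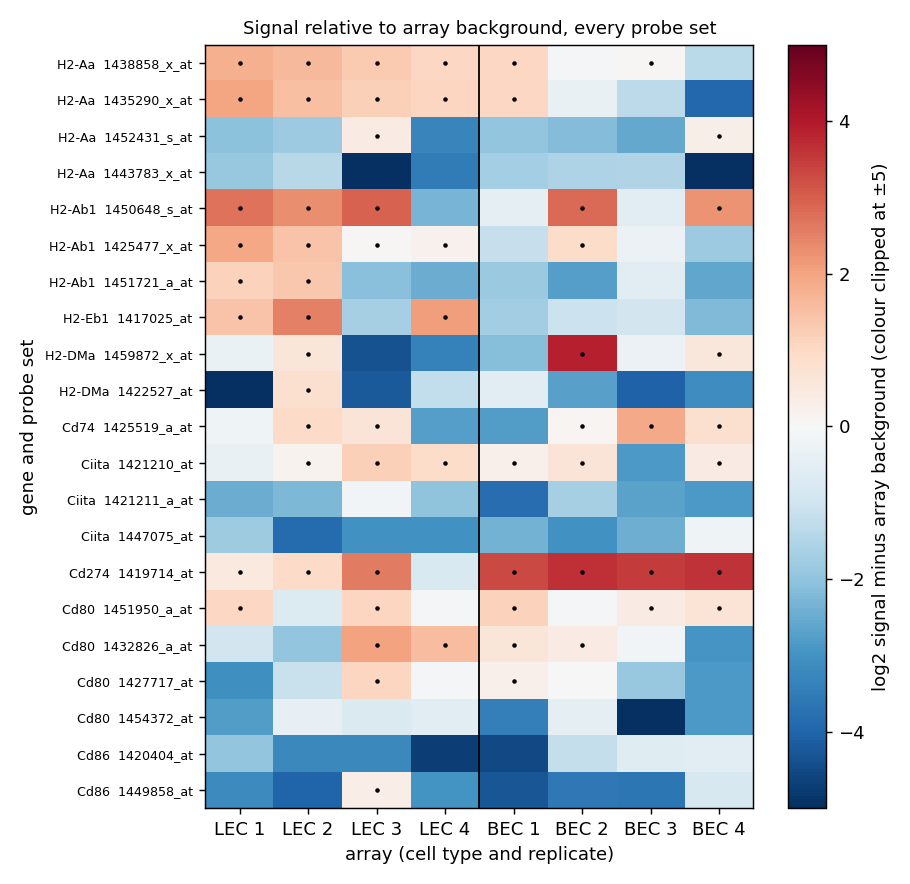
Log2 signal minus array background (colour, clipped at the ends of the scale) for all 21 probe sets (rows, with gene name) on the 8 arrays (columns, LEC left of the line and BEC right of it), with a dot where the signal is above background. The dots of the class II chain genes gather on the LEC side, 4 to 6 of 8 on each LEC array and 1 or 2 of 8 on each BEC array, and those of Cd274 run across 7 of 8 arrays. The 8 class II rows are probe sets of 3 genes and share targets, so they are no independent counts.

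Marker genes of leukocytes, the cells best known for class II, were read on the same arrays. In 3 of their lists the summed signal, called genes included, was higher in LEC, as it was for the class II chain genes. The summed linear signal of 15 macrophage markers was 753 to 1485 in LEC and 104 to 297 in BEC, that of 8 T cell markers 641 to 1414 in LEC and 360 to 622 in BEC, and that of 10 pan-leukocyte markers 1272 to 2761 in LEC and 520.2 to 1168 in BEC. None of these 3 ranges overlapped, and each sum was higher in LEC in 4 of 4 mice. Of single tested genes, 5.19% were higher in LEC without overlap, and no such share was computed for sums. The sum of 12 B cell markers was 163 to 522 in LEC and 61.2 to 187 in BEC, higher in LEC in 3 of 4 mice.

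These sums include the genes that limma called. Mrc1, the mannose receptor gene, which lymphatic endothelium is also known to express, averaged 9.33 ± 1.09 in LEC and 3.20 ± 1.20 in BEC (limma, adjusted p = 4.67e-04). Cd2, a T cell adhesion gene, averaged 8.14 ± 0.74 in LEC and 4.88 ± 1.13 in BEC (limma, adjusted p = 0.0203). Among pan-leukocyte genes, Arhgdib, at 10.44 ± 0.41 in LEC and 8.43 ± 0.87 in BEC, was called higher in LEC (limma, adjusted p = 0.0305). Lcp1 was called lower in LEC (limma, adjusted p = 0.0384). A replicate block for the mouse gave adjusted p-values of 0.0689 for Arhgdib and 0.0850 for Lcp1. Over 16 alternatives Cd2 was called in 10, Arhgdib in 7, Lcp1 in 6 and Mrc1 in 16. With the called genes left out, a choice that depends on the difference itself, the macrophage sum was 166 to 538 in LEC and 100.2 to 274 in BEC and still higher in LEC in 4 of 4 mice. The T cell sum was then 443 to 958 in LEC and 350 to 571 in BEC and the pan-leukocyte sum 110 to 802 in LEC and 79.4 to 390 in BEC, each higher in LEC in 3 of 4 mice. Without the called genes, the ranges of LEC and BEC overlapped in each of these lists.

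At an unadjusted p under 0.05 stood 2 of 9 tested macrophage markers, 2 of 7 T cell markers, 2 of 6 pan-leukocyte markers, 1 of 4 dendritic cell markers and 0 of 5 B cell markers (14.4% of all tested genes). All 7 tested T cell markers had a difference above 0, the smallest 0.14 for Cd8a. Cd3e, which the filter left out, averaged 1.72 in LEC and 2.87 in BEC. It was above background on 0 LEC and 2 BEC arrays. CD45 (Ptprc), the leukocyte antigen that the sort stained, was above background on 1 LEC and 2 BEC arrays. Of the 9 tested macrophage markers, 6 had a difference above 0 and 3 below, which were Csf1r (-0.86), Tyrobp (-0.49) and C1qb (-0.10). The lysozyme gene Lyz2 was above background on 4 LEC and 3 BEC arrays. It was higher in LEC in 4 of 4 mice (difference 1.76, limma, adjusted p = 0.383). The complement gene C1qb was above background on 2 LEC and 4 BEC arrays. Adgre1, which encodes a macrophage surface receptor, was named after its values were seen. It was above background on 4 LEC arrays and 1 BEC array, with no overlap (5.19% of all tested genes in that direction). Its difference was 3.30 (limma, adjusted p = 0.167). C1qa was above background on 0 of 8 arrays.

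The dendritic cell list ran the other way, with 347 to 615 in LEC and 477 to 1272 in BEC, and was carried by Zbtb46, which endothelium also expresses. Without Zbtb46, left out after its values were seen, the other 10 genes summed to 89.5 to 276 in LEC and 63.1 to 190 in BEC, higher in LEC in 4 of 4 mice. Irf8 exceeded background on all 8 arrays, and Ccr7, Batf3 and Clec10a on none.

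LEC replicate 1 had the highest B cell and T cell sums, and LEC replicate 4 the highest macrophage and pan-leukocyte sums. Without the called genes, the macrophage and pan-leukocyte sums were highest on LEC replicate 1, at 538 and 802. On LEC replicate 4 they were then 277 and 695. The sum of the class II chain genes was lowest among LEC arrays on LEC replicate 4, at 104, and highest on LEC replicate 1, at 374. LEC replicate 1, with the highest background, also had the highest H2-Aa and H2-Ab1 of all arrays. Leaving that array out, limma gave a difference of 1.77 for H2-Aa (adjusted p = 0.455) and 0.32 for H2-Ab1 (adjusted p = 0.954). What part leukocytes have in the class II signal was not tested.

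**Figure D3:**
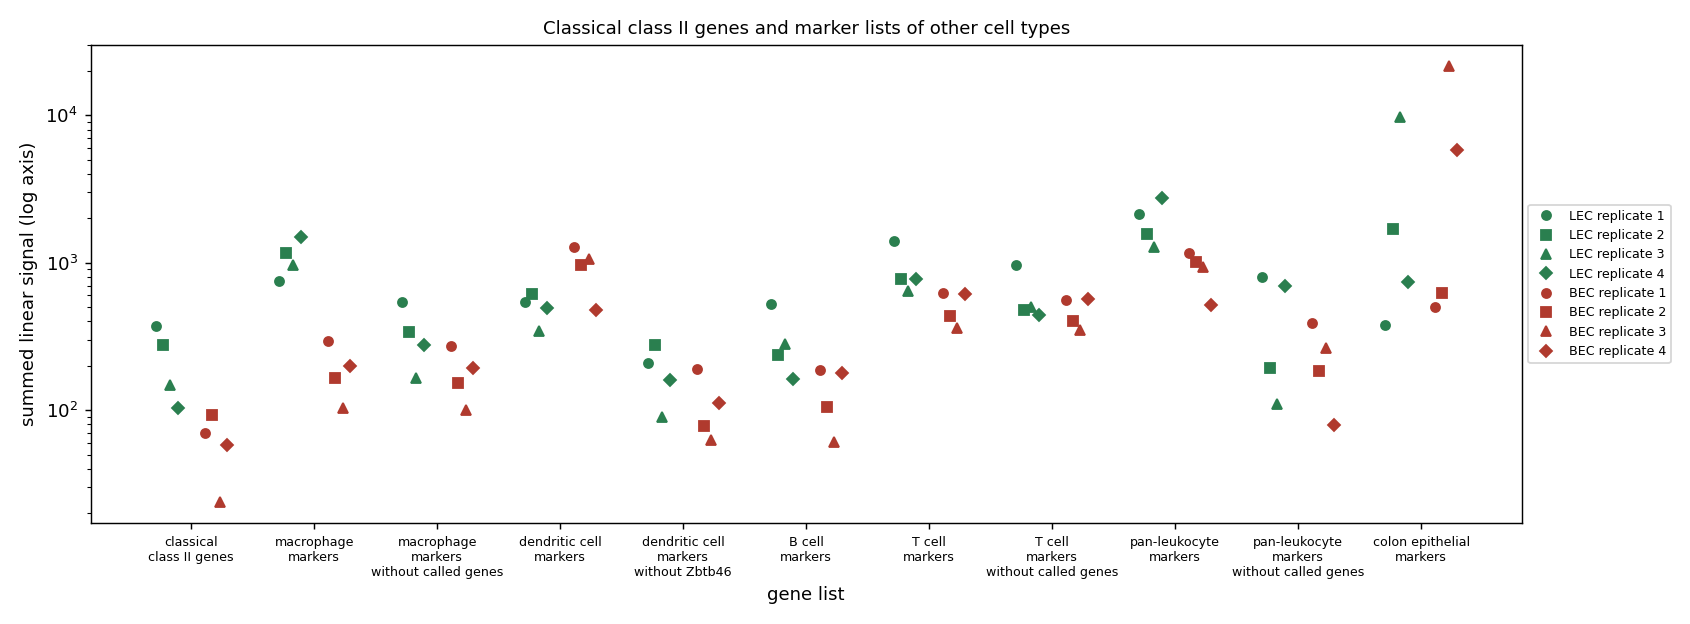
Summed linear signal (vertical log axis) of the 3 class II chain genes and of marker lists of other cell types, whole and with the genes named on the axis left out (horizontal axis), 1 point per array, LEC left of BEC, marker shape for the mouse. The class II sums of LEC, 104 to 374, lie above those of BEC, 24.0 to 92.2, and the whole macrophage, T cell and pan-leukocyte lists likewise lie higher in LEC without overlap. How often such sums separate was not computed, and 5.19% of single tested genes do so in that direction. With the called genes left out, LEC and BEC overlap in each of these marker lists.

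The genes for loading and assembly showed no difference that passed the test. Cd74, whose product is the invariant chain, had 4.66, 5.28, 4.49 and 1.24 on the LEC arrays, against 1.72, 3.55, 5.33 and 4.22 on the BEC arrays. It exceeded background on 2 LEC and 3 BEC arrays and was higher in LEC in 2 of 4 mice. The difference was 0.21 ± 1.11 (95% interval -2.19 to 2.61, limma, adjusted p = 0.963), and it was -0.065 with equal array medians. The interval reaches well to both sides of 0, so these arrays leave the size and direction of any difference in Cd74 unsettled.

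H2-DMa, the alpha chain of the peptide exchanger, had 4.56, 4.94, -0.52 and 0.64 on the LEC arrays, against 2.40, 7.32, 3.13 and 4.00 on the BEC arrays, with 1459872_x_at. It was above background on 1 LEC array and 2 BEC arrays, both values of mice 1 and 3 were under it, and BEC replicate 2 was the highest of the 8. This probe set also bears the _x_at mark of probes that can match other transcripts. The difference of -1.81 ± 1.44 had an adjusted p of 0.647 (limma), and ran from -2.66 to -0.78 with 1 array left out (-0.78 without BEC replicate 2, -0.84 without LEC replicate 3). Its other probe set was above background on 1 LEC array, at 5.14 in replicate 2. The probe set 1449580_s_at, which H2-DMb1 shares with H2-DMb2, had 6.25, 4.83, 2.75 and 4.90 on the LEC arrays, against 5.11, 3.29, 3.60 and 3.28 on the BEC arrays, and the adjusted p of its difference of 0.86 was 0.775 (limma over probe sets). It cannot say which of the 2 neighbouring genes it read.

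Ciita, the transactivator gene, had 4.50, 4.49, 5.01 and 4.94 on the LEC arrays, against 4.76, 4.08, 0.57 and 3.86 on the BEC arrays, with 1421210_at. It was above background on 3 arrays of each group, never far above it, and BEC replicate 3 stood far below the others. The difference was 1.42 ± 0.99 (95% interval -0.71 to 3.55, limma, adjusted p = 0.581). It was 0.50 without BEC replicate 3 and 0.22 without the 3 arrays with bright epithelial genes. Its probe sets 1421211_a_at and 1447075_at exceeded background on 0 of 8 arrays. For the first of these LEC lay between 2.01 and 3.69 and BEC between 0.55 and 1.77 without overlap, which over all probe sets with no filter happened in 7.3%, and values under background have no order.

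Cd274, the PD-L1 gene, was the clearest member in signal, and its mean was lower in LEC. It had 5.37, 5.29, 6.43 and 3.26 on the LEC arrays, against 7.83, 7.08, 6.92 and 7.05 on the BEC arrays. All 4 BEC arrays and 3 LEC arrays were above background, no LEC array reached any BEC array, and LEC was lower in 4 of 4 mice. Groups without overlap in that direction were found at 5.19% of tested genes, and in either direction at 10.4%. The difference was -2.13 ± 0.75 on the log2 scale, a 4.38-fold difference of means (95% interval -3.75 to -0.51), and the adjusted p was 0.172 (limma), so it did not pass over all genes. It ran from -2.82 to -1.52 over 16 alternatives, with adjusted p-values from 0.0984 to 0.333, and was -2.82 (adjusted p = 0.324) without the 3 arrays with bright epithelial genes. LEC replicate 3, the highest LEC array for Cd274, is 1 of those 3.

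**Figure D4:**
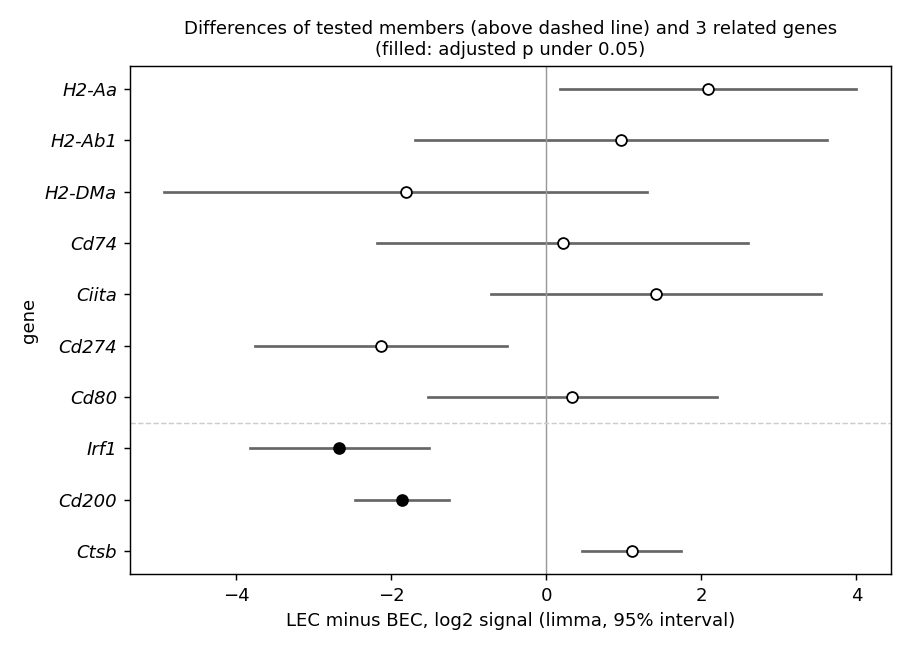
Difference of LEC minus BEC in log2 signal (horizontal axis) with its 95% interval from limma for the 7 tested members and 3 related genes (vertical axis), filled where the adjusted p was under 0.05. The intervals of H2-Aa and Cd274 stop short of 0 before adjustment, the other 5 members span it, and Irf1 and Cd200 are the filled points.

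The co-stimulatory ligand genes were dim in both cell types. Cd80 with 1451950_a_at had 5.92, 3.62, 4.90 and 3.92 on the LEC arrays, against 5.66, 3.36, 3.86 and 4.14 on the BEC arrays, above background on 2 LEC and 3 BEC arrays. Replicate 1, the array of highest background, was highest in both cell types, and the difference was 0.34 ± 0.86 (95% interval -1.52 to 2.20, limma, adjusted p = 0.915). A second kept probe set of Cd80, 1432826_a_at, had 3.97, 2.36, 5.84 and 5.55 on the LEC arrays, against 5.12, 3.85, 3.30 and 0.48 on the BEC arrays, and its adjusted p was 0.731 (limma over probe sets). The 2 did not rank the arrays alike. The 2 further probe sets of Cd80 exceeded background on 2 and 0 arrays. Cd86 did not pass the filter: its probe set 1420404_at lay between -0.69 and 2.90 in LEC and between -0.01 and 2.86 in BEC, under background on all 8 arrays, and 1449858_at was above background on LEC replicate 3 alone, at 4.15.

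Other genes of class II presentation were read as a list of 20, of which 17 were tested. Limma called 0 of these 17 (4.07% of all tested genes), with 2 under an unadjusted p of 0.05 (14.4% of all tested genes). Of the differences, 8 were above 0 and 9 below, with a median of -0.02, against 0.08 over all tested genes. The 3 with the highest mean signal were the endosomal protease genes Ctsb and Ctsl and the cysteine protease inhibitor gene Cst3. Ctsb, cathepsin B, had 11.98, 11.62, 11.18 and 11.74 on the LEC arrays, against 10.85, 10.26, 10.74 and 10.25 on the BEC arrays. Every LEC array stood above every BEC array, as for 5.19% of all tested genes. The difference was 1.10 ± 0.30, and the adjusted p of 0.0561 (limma) missed the threshold. Its other 4 kept probe sets had differences of 0.62 to 1.10, none called.

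Ctsl, cathepsin L, averaged 10.36 ± 0.15 in LEC and 10.91 ± 0.43 in BEC (SD, n = 4 each), a difference of -0.55 ± 0.32 (adjusted p = 0.480), and Cst3, cystatin C, 11.54 ± 0.29 in LEC and 11.82 ± 0.13 in BEC (adjusted p = 0.679), both by limma. The 95% intervals were -1.23 to 0.13 for Ctsl and -0.81 to 0.25 for Cst3. The LEC arrays of Ctsl all lay below its BEC arrays, as for 5.19% of all tested genes, and the groups of Cst3 overlapped. H2-Ea was named after its values were seen, because C57BL/6J mice do not transcribe it. It was under background on 5 of 8 arrays and above it at 4.92 in LEC replicate 1, 7.16 in LEC replicate 4 and 5.27 in BEC replicate 1. The filter left H2-Ea out of the fit. Its mean was 4.82 in LEC and 2.34 in BEC, and LEC was higher in 3 of 4 mice. That log2 difference of 2.48 compares with 2.09 for H2-Aa and 0.96 for H2-Ab1. A value above background, or a higher mean in LEC, is thus no proof of the named transcript. The source of the H2-Ea values was not tested.

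On the interferon gamma side, 1 of 7 tested genes was called, against 4.07% of all tested genes. Irf1, the interferon-induced transcription factor that acts upstream of both Ciita and Cd274, had 8.87, 7.74, 7.16 and 6.66 on the LEC arrays, against 9.89, 10.99, 9.93 and 10.30 on the BEC arrays. It was lower in LEC in 4 of 4 mice, with all 8 arrays above background. Its groups did not overlap, as for 5.19% of all tested genes in that direction. The difference was -2.67 ± 0.53 (6.36-fold, 95% interval -3.82 to -1.52, limma, adjusted p = 0.0108). The adjusted p was 0.0579 without BEC replicate 2, 0.0506 with no intensity trend and 0.172 without the 3 arrays with bright epithelial genes. The differences of the other 6 lay on both sides of 0, and their lowest adjusted p was 0.383.

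Among 26 other ligands and enzymes that act on T cells, 24 had a probe set and 14 were tested. Limma called 0 higher and 1 lower in LEC (1.76% and 2.31% of all tested genes). Their median difference was -0.24, against 0.08 over all tested genes. Cd200, whose product restrains myeloid cells through its receptor, had 9.73, 10.10, 10.04 and 10.06 on the LEC arrays, against 11.78, 11.69, 11.68 and 12.23 on the BEC arrays. It was lower in LEC by 1.86 ± 0.28 on the log2 scale (3.63-fold, limma, adjusted p = 0.00155), and in 4 of 4 mice. Its groups did not overlap (5.19% of all tested genes in that direction). Its adjusted p was 0.0704 with no intensity trend and 0.0827 without the 3 arrays with bright epithelial genes, where the difference was -1.77. The T cell receptors that these ligands meet were read as a check of T cells on the arrays. Of 8 measured, 2 were tested and 0 called, with 0 under an unadjusted p of 0.05 (limma). Over all tested genes the shares were 4.07% and 14.4%. Ctla4 averaged 3.54 ± 2.15 in LEC and 3.39 ± 1.79 in BEC, and Cd28 3.44 ± 1.93 in LEC and 1.62 ± 1.97 in BEC (SD, n = 4 each), above background on 5 and 2 of 8 arrays. Lag3 and Btla were under background on all 8.

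The genes most like 3 of the members over the 8 arrays were listed by Pearson's r among the other 13258 tested genes, as a description, since with 8 arrays some of so many genes correlate strongly. Nearest to Cd274 were Penk (r = 0.972), Isg20 (r = 0.971), Doc2a (r = 0.969), Cryba4 (r = 0.966) and Ccdc85a (r = 0.964), each with lower mean signal in LEC. When each cell type's mean was taken out first, the 5 nearest were Dlg3, Mtap, Prmt6, Ctxn2 and Exoc3l2, with r from 0.968 to 0.982, so none was on both lists. Nearest to H2-Aa on both lists was Bmp8a (r = 0.983 over the arrays and 0.992 for the deviations). Nearest to Cd74 was Slc38a9 over the arrays (r = 0.969), and Efcab2 for the deviations (r = 0.978). No other member was among the 5 nearest to any of the 3.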

How the data were processed

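RNA of 8 sorted samples was hybridised to single-colour arrays after linear amplification, per the labels' protocols. The deposited values are log2 signals, 1 column per array; MAS5 is named in the submitters' processing notes, no version is stated there, and after trimming 2% the linear signals averaged 100.04 on every array. They were used as deposited. Gene names came from the platform annotation of 2016, updated through gene numbers to GRCm38.p6 symbols (34945 probe sets with 1 gene, 34741 of them matched, 932 with several, 9160 with none). No genome build is named for the arrays.

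A gene was represented by its brightest probe set on average, and entered the fit if 4 or more of the 8 arrays had it over their 40th percentile. Limma 3.58.1 (R 4.3.3; lmFit, eBayes with intensity trend) was fitted on all 13259 kept genes, and on all 28838 kept probe sets, with Benjamini-Hochberg adjustment over each table and a threshold of 0.05. It was tested on simulated data. Differences are LEC minus BEC. Background is the 95th percentile of 27 control probe sets per array. Pairing by mouse comes from the series design; same-mouse deviations correlated at 0.142, 0.0776, 0.181 and 0.0510, and the fit leaves the mouse out. P-values measure the spread between mice together with that of amplification and array. Of the lists of other class II, interferon gamma and T cell ligand genes, every called gene was named, or else the 3 with the highest mean. Of the T cell receptors, those tested and those under background on all arrays were named. Marker genes were named when called, for the number of arrays above background, or after their values were seen. H2-Ea was also named after its values were seen. The members and lists were chosen with earlier results of these data known. Alternatives were the mouse as a block, equal medians, quantile normalization, other filters, the mean of probe sets, no trend and each array left out.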

Additional observations from a re-analysis of the deposited data

Results flagged for a closer look

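Of 42 sets of 4 arrays (21 probe sets, 2 cell types), 4 held an array far from the other 3 by Dixon's criterion, where chance flags about 1 in 20. H2-Ab1 with 1450648_s_at was 1.67 on LEC replicate 4, against 6.65 to 7.60 on the other LEC arrays. H2-Eb1 was 2.16 on LEC replicate 3, against 6.09 to 6.82 on the others. H2-Aa with 1443783_x_at was -3.20 on BEC replicate 4, against 1.88 to 2.80 on the others, all of them under background. Cd86 with 1449858_at was 2.63 on BEC replicate 4, against -0.18 to 0.25 on the others, likewise under background. The array that stood apart was not the same for H2-Ab1 and H2-Eb1.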

How the results depend on the processing

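No tested member and no member probe set was called under any of the 16 alternatives at gene level or 15 at probe set level, so the count stayed at 0. With the mouse as a replicate block, limma called 236 genes higher and 298 lower in LEC and 922 probe sets, and of the genes named here Arhgdib and Lcp1 lost their calls. Leaving out 1 array at a time gave 137 to 199 genes higher, 164 to 321 lower and 596 to 877 probe sets called. Leaving out the 3 arrays with bright epithelial genes, chosen after seeing the data, gave 107 higher, 81 lower and 266 probe sets, with fewer arrays in the fit. Cd74 turned to -0.065 when medians were made equal, and its values were -0.45 to 1.10 with 1 array left out (-0.037 without LEC replicate 1, -0.24 without LEC replicate 2, -0.45 without BEC replicate 1). Cd80 turned to -0.10 without LEC replicate 1 and -0.023 without the 3 arrays (-0.10 to 0.81 with 1 array left out). Ctsl turned to 0.082 with the mean of its probe sets. Ctla4 turned to -0.13 with equal medians or quantile normalization, -0.90 without the 3 arrays, -0.56 without LEC replicate 1, -0.21 without LEC replicate 2 and -0.73 without BEC replicate 4 (-0.73 to 1.09 with 1 array left out). None of these values was called, and the cause was not tested. Ctsb passed with the stricter filter (adjusted p = 0.0440) and without LEC replicate 3 (0.0446). Filtered genes have no value in some fits. With 4 arrays a group and signals near background, differences in dim members were not detectable unless large.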
